A study of Mus musculus with 6 samples.

Results

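Wnt signalling genes were compared between libraries labelled WT and TCKO, the latter from osteoblasts of mice bred for deletion of the TET genes Tet1, Tet2 and Tet3. The genes were taken by symbol from the deposited count table: all Wnt, Fzd, Sfrp, Dkk and Rspo genes, together with Frzb, Wif1, Sost, Lrp5, Lrp6, Axin1, Axin2, Lef1, Tcf7, Nkd1, Nkd2, Lgr4, Lgr5, Lgr6, Notum, Ror1 and Ror2. This gave 59 of 55471 genes, of which 58 are protein-coding in the GENCODE M21 annotation and 1 (Rspo4os) is an antisense transcript that the symbol pattern also matched. By role there were 19 Wnt ligands, 14 receptors and co-receptors, 7 R-spondins and LGR receptors, 12 secreted antagonists, 4 intracellular feedback and scaffold genes and 2 transcription factors. The rule uses no measured value.

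The libraries came from primary osteoblasts, the bone-forming cells, grown from the calvaria (skull cap) of mice aged 3 days on a C57BL/6 background. TCKO cells came from mice carrying floxed alleles of Tet1, Tet2 and Tet3 and Prx1-Cre, a recombinase expressed in limb and skull mesenchyme and therefore not in every cell of such a culture. WT cells came from control mice, for which the labels give neither a Cre nor a floxed allele. RNA-seq was carried out on 3 libraries per genotype, and whether these came from separate animals or cultures is not stated, so the p-values measure the spread between these libraries, part of which may be technical.

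Wnt proteins are secreted lipid-modified ligands that bind frizzled receptors together with the co-receptors Lrp5 and Lrp6. In the canonical branch this stops the Axin scaffold from marking beta-catenin for destruction, and beta-catenin then acts with TCF and LEF factors on target genes such as Axin2 and Nkd1, whose products dampen the signal. A second branch, in which Wnt5a and its receptor Ror2 take part, acts on cell polarity and movement without beta-catenin, and canonical Wnt signalling is known for promoting bone formation.

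Total counts ranged from 8019999 to 10177214 per library. Counts of Tet1 were 98, 131 and 115 in WT against 68, 51 and 51 in TCKO (replicates 1, 2 and 3), whereas Tet2 (132, 213 and 159 against 159, 121 and 161) did not pass the test and Tet3 (485, 611 and 452 against 795, 622 and 712) was higher in the libraries labelled TCKO, so directions rest on the library labels. These counts cover all exons and do not separate deleted exons from the rest. Replicates 1 and 2 of each genotype were much closer to each other (chi-square per degree of freedom of 1.69 in WT and 2.04 in TCKO) than to replicate 3 (16.5 to 23.3). TCKO replicate 3 also differed from the other 5 libraries in sex-linked transcripts, with 4583 counts of Xist and 0 of Ddx3y, against 1 to 4 of Xist and 675 to 1094 of Ddx3y. These are the counts of female cells, so TCKO replicate 3 did not share its animals with TCKO replicates 1 and 2. The part of sex in the Wnt results was not tested. The osteoblast markers Runx2, Sp7 and Col1a1 were present in every library, whereas Bglap had at most 2 counts, and of the 8 osteoblast markers 3 were lower and 1, Spp1, higher. All 7 chondrocyte markers were lower in TCKO, with a summed level of 6210 to 8141 counts scaled to a library of 1000000 (CPM) in WT and 684 to 967 CPM in TCKO, so this loss stands beside every result given here. Among them, Matn1 and Ucma reached the read level needed for testing (given below) in their WT libraries alone. Their tests are therefore not given as support. Of the macrophage and osteoclast markers 3 of 7 were lower (summed level 495 to 818 CPM against 174 to 551 CPM, overlapping), and of the tendon markers 1 of 3 (140 to 213 CPM against 93.1 to 121 CPM), and the rest were not called. Keratinocyte markers summed to at most 8.58 CPM, with Trp63 lower and Krt14 at 0, and endothelial markers, too low to test, to at most 2.49 CPM. Trp63 also reached the level for testing in its WT libraries alone, so its test is not given as support. Skeletal muscle markers summed to 7.58 to 24.7 CPM in WT and 30.2 to 80.6 CPM in TCKO, with Acta1 higher, and Schwann cell and neuron markers to 61.0 to 78.2 CPM and 73.5 to 84.2 CPM. Their part in the Wnt results was not tested, and in these bulk cultures fewer cells of a type and less RNA per cell cannot be told apart.

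Among the members that differed between the genotypes, more were lower than higher in TCKO. Of the 59 members, 40 had enough reads to be tested (a count of about 10, or 1.17 CPM, in at least 3 libraries), and 16 of these differed between the genotypes at an adjusted p under 0.05 (quasi-likelihood test of edgeR, adjusted after Benjamini and Hochberg over 13826 genes). Of the 16, 11 were lower in TCKO (Fzd5, Nkd1, Fzd8, Dkk2, Fzd10, Sfrp2, Rspo2, Lgr4, Wif1, Wnt10b and Lrp6) and 5 were higher (Wnt2b, Wnt5a, Ror2, Fzd6 and Axin2). Thus 40.0% of the tested members were called, against 17.7% of all tested genes, of which 8.63% were lower and 9.07% higher. Beyond a 2-fold change there were 9 lower members and 1 higher, Wnt2b, against 6.35% of all tested genes (3.19% lower and 3.16% higher). The median log2 fold change was -0.40 over the 40 tested members and 0.0002 over all tested genes.

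Some of these members could hardly have been tested without differing, since Wnt2b passed the filter through its TCKO libraries alone and Wif1 through its WT libraries alone. Both stay in the counts of called members, but their tests are not given as support. Fzd10 reached the level in all 3 WT libraries and in 1 TCKO library, so its test is weakened by the filter as well. The CPM values of the genotypes did not overlap for 21 of the 40 tested members, all 16 called ones included, against 38.3% of all tested genes. With the replicate number as a block, 22 members were called, including all 16, against 23.5% of all genes. With the counts of replicates 1 and 2 summed within each genotype, which leaves 2 samples against 2, edgeR called Fzd5 and Nkd1 as lower and 0 members as higher (12 lower and 5 higher at an unadjusted p under 0.05), where 2.79% of all genes were called. Once the sums were also blocked by replicate number, 8 were lower and 4 higher, where 8.32% of all genes were called. Without replicate 3 of both genotypes, 19 were lower and 11 higher, all 16 among them, where 45.1% of all genes were called from libraries that differed little within a genotype.

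**Figure D1:**
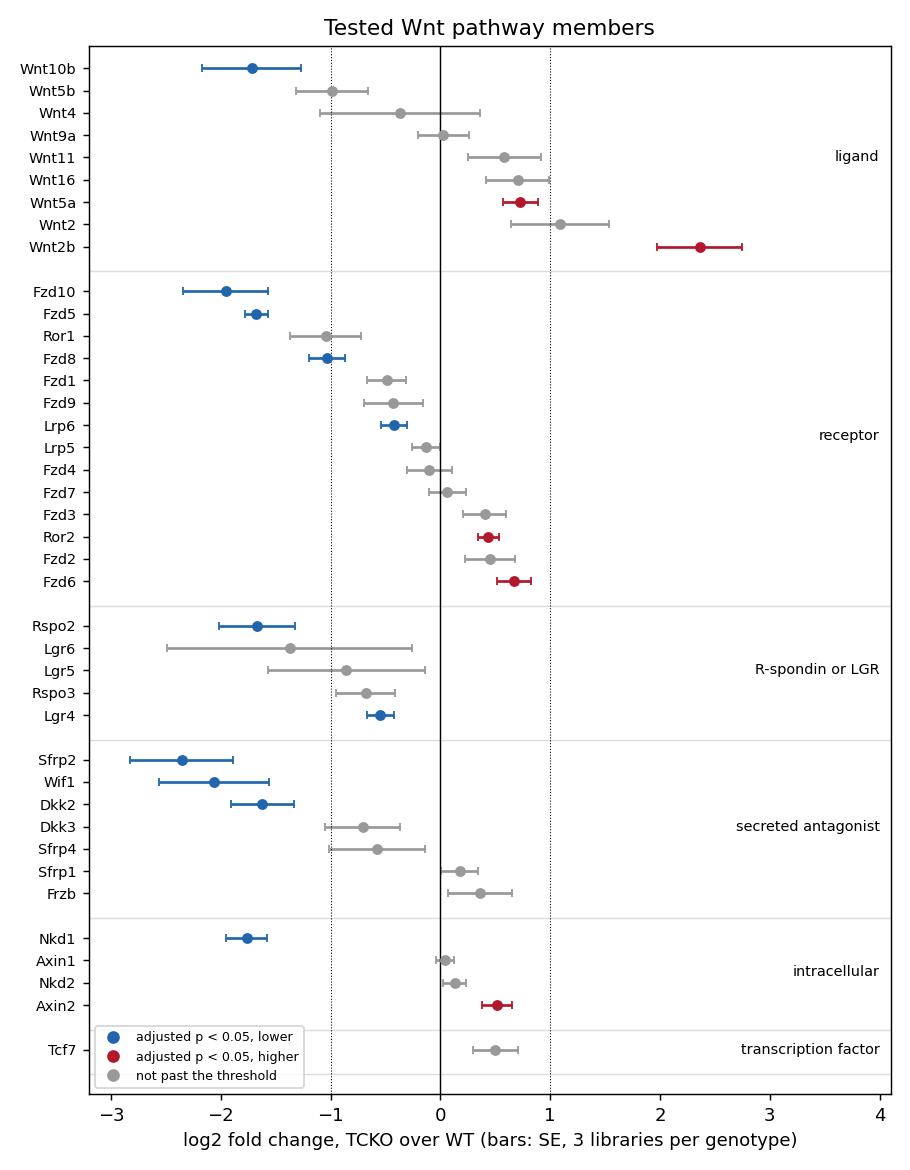
Log2 fold change (TCKO over WT) of the 40 tested members grouped by role, with points for the fitted value, bars for its SE (3 libraries per genotype) and colour for the call at an adjusted p under 0.05. The 9 called members beyond a 2-fold loss lie left of -1, and Wnt2b, at 2.36, is the called member beyond a 2-fold gain.

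The ligands were examined first. Of 19 Wnt genes, 9 were tested, and 1 was lower and 2 were higher. Wnt10b (ENSMUSG00000022996, chromosome 15, 98770712 to 98778150, GRCm38), a canonical ligand that drives osteoblast formation, had counts of 101, 122 and 213 in WT (replicates 1, 2 and 3, an order kept throughout) against 28, 27 and 76 in TCKO. Every TCKO library lay below every WT library, and replicate 3 was the highest of its genotype in both. Its level fell from 16.7 ± 7.86 to 5.03 ± 3.03 CPM (SD, n = 3), which is -1.72 ± 0.45 as a log2 fold change with its SE (edgeR adjusted p = 0.0350).

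Wnt2b (ENSMUSG00000027840, chromosome 3, 104945272 to 104961921), a ligand close in sequence to Wnt2, had 7, 10 and 8 counts over the WT libraries against 51, 50 and 24 over the TCKO ones. It was nearly silent in the 3 WT libraries and higher in all 3 TCKO libraries, least so in replicate 3. The rise from 0.938 ± 0.0799 to 4.91 ± 1.93 CPM was 5.14-fold (log2 fold change 2.36 ± 0.39, edgeR adjusted p = 0.00609). Since Wnt2b passed the filter through its TCKO libraries alone, this test is not given as support.

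Wnt5a (ENSMUSG00000021994, chromosome 14, 28504750 to 28527448), the main ligand of the branch that acts without beta-catenin, had 462, 541 and 433 counts over the WT libraries against 739, 576 and 1008 over the TCKO ones. The WT libraries were close together, and the TCKO libraries were all higher and more spread, with replicate 3 at the top. Its level rose from 54.1 ± 1.73 to 89.7 ± 21.2 CPM (log2 fold change 0.73 ± 0.16, edgeR adjusted p = 0.0172).

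The other 6 tested ligands did not pass the threshold. Wnt9a, at 13.9 CPM per kb of exon the most abundant ligand in WT, had a log2 fold change of 0.03 ± 0.23 (by edgeR, adjusted p = 0.951), with 387, 473 and 368 counts over the WT libraries against 477, 470 and 255 over the TCKO ones. Wnt2 (log2 fold change 1.09 ± 0.45) and Wnt5b (-0.98 ± 0.33) had adjusted p-values of 0.135 and 0.0776 in edgeR, which fell to 0.00680 and 0.0422 with the replicate block and were 0.0365 and 0.128 with the block on summed replicates 1 and 2. Wnt16, Wnt11 and Wnt4 had log2 fold changes of 0.70, 0.58 and -0.37, and a p that misses the threshold does not show that a gene did not differ.

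Of the 10 untested ligands, Wnt1, Wnt8a, Wnt8b and Wnt9b had no count in any library, and Wnt3, Wnt3a and Wnt7a had at most 2. Wnt6 and Wnt7b had at most 4 counts per library. Wnt10a, the closest relative of Wnt10b, had 1, 1 and 13 counts over the WT libraries against 10, 1 and 4 over the TCKO ones.

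Summed per kb of exon, the ligand transcripts came to 31.3 to 38.8 CPM per kb in WT and 36.6 to 41.6 in TCKO, so the totals overlapped while their makeup differed. Wnt10b held 14.1% ± 4.70 of the WT sum and 3.73% ± 1.99 of the TCKO sum (SD, n = 3). The share of Wnt5a was 20.7% ± 2.97 against 29.4% ± 4.93, and that of Wnt9a 41.5% ± 6.03 against 37.2% ± 14.6. Wnt9a was the largest share in every library but TCKO replicate 3, where Wnt5a held 34.7%, Wnt2 25.9% and Wnt9a 20.6%.

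**Figure D2:**
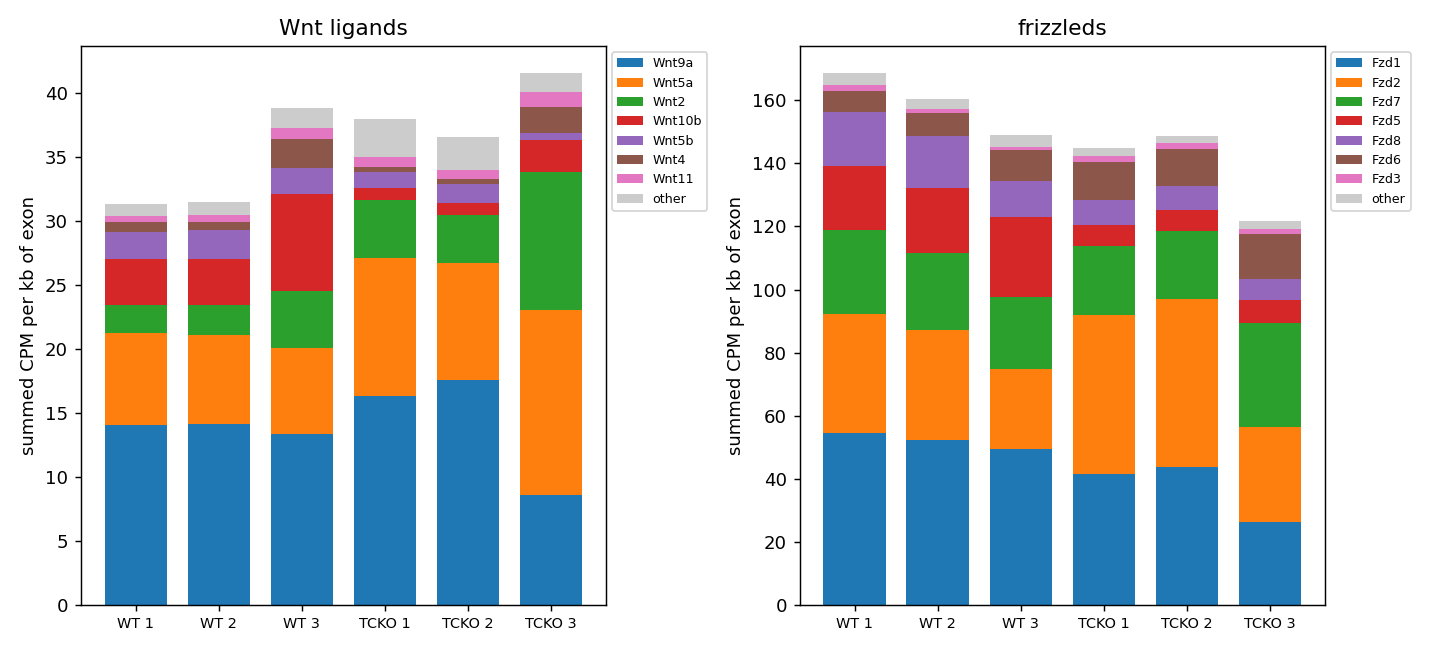
Summed CPM per kb of exon of the Wnt ligands (left) and frizzled receptors (right) in each of the 6 libraries, with colours for the 7 most abundant genes of each family and grey for the others. Wnt10b shrinks and Wnt5a grows in the TCKO bars on the left, and Fzd5 and Fzd8 shrink in the TCKO bars on the right.

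For the ligand calls, leaving out WT replicate 1 or 2 raised the edgeR adjusted p of Wnt5a to 0.0611 and 0.0713. That of Wnt10b rose to 0.0628, 0.0646 and 0.0632 without WT replicate 1, 2 or 3, to 0.116 and 0.117 without TCKO replicate 1 or 2, and to 0.0535 in a robust fit, whereas the replicate block lowered it to 0.000566.

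All 14 receptors and co-receptors were tested, with 4 lower and 2 higher. The lowest adjusted p among them was that of Fzd5 (ENSMUSG00000045005, chromosome 1, 64730558 to 64737751), a frizzled that takes part in canonical signalling. It had 1158, 1442 and 1448 counts over the WT libraries against 406, 377 and 449 over the TCKO ones. The genotypes were far apart, and replicate 3 was the highest of its genotype after scaling (140, 144 and 175 CPM in WT, and 46.4, 46.9 and 50.4 CPM in TCKO). Its level fell 3.20-fold, from 153 ± 19.4 to 47.9 ± 2.19 CPM (log2 fold change -1.68 ± 0.10, edgeR adjusted p = 0.000124).

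Fzd8 (ENSMUSG00000036904, chromosome 18), the frizzled most like Fzd5, had 857, 992 and 563 counts over the WT libraries against 424, 361 and 349 over the TCKO ones. All TCKO libraries were lower, by a log2 fold change of -1.03 ± 0.16 (90.3 ± 19.3 against 44.1 ± 4.67 CPM, edgeR adjusted p = 0.00513). Fzd10 (ENSMUSG00000081683, chromosome 5, 128600844 to 128604093), a receptor known from the embryonic limb and nervous system, was scarce, with 33, 25 and 26 counts over the WT libraries against 4, 6 and 11 over the TCKO ones. Mean CPM fell from 3.21 ± 0.752 to 0.812 ± 0.393 (log2 fold change -1.95 ± 0.39, edgeR adjusted p = 0.0128), and the TCKO libraries came near the floor of 3 counts, or 0.299 to 0.373 CPM. Fzd10 passed the filter with all 3 WT libraries and 1 TCKO library, which weakens this test.

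Lrp6 (ENSMUSG00000030201, chromosome 6, 134446476 to 134566965), the co-receptor needed for canonical signalling, had 1386, 1666 and 1061 counts over the WT libraries against 1085, 931 and 944 over the TCKO ones. The loss was small, from 154 ± 22.2 to 115 ± 8.996 CPM (log2 fold change -0.42 ± 0.12, edgeR adjusted p = 0.0439), and its paralogue Lrp5 had a log2 fold change of -0.13 ± 0.13 (by edgeR, adjusted p = 0.517).

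Ror2 and Fzd6, the receptors that rose, are both known from signalling without beta-catenin. Ror2 (ENSMUSG00000021464, chromosome 13, 53109312 to 53286124), a receptor tyrosine kinase that binds Wnt5a, had 318, 372 and 302 counts over the WT libraries against 459, 443 and 396 over the TCKO ones. Its level rose from 37.4 ± 0.980 to 50.6 ± 5.54 CPM (log2 fold change 0.44 ± 0.10, edgeR adjusted p = 0.0203). Fzd6 (ENSMUSG00000022297, chromosome 15, 39006034 to 39038188), known for its part in planar cell polarity, had 267, 347 and 397 counts over the WT libraries against 507, 453 and 612 over the TCKO ones. The lowest TCKO library was above the highest WT library, and the level rose from 38.4 ± 8.53 to 60.9 ± 6.72 CPM (log2 fold change 0.67 ± 0.16, edgeR adjusted p = 0.0245).

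The other 8 receptors did not pass the threshold. Ror1, the paralogue of Ror2, had 60, 61 and 35 counts over the WT libraries against 34, 23 and 16 over the TCKO ones, the opposite direction to Ror2, with a log2 fold change of -1.04 ± 0.32 (adjusted p = 0.0627 in edgeR, 0.0463 in DESeq2, 0.0125 in edgeR with the replicate block and 0.0796 with the block on summed replicates 1 and 2). Fzd1 and Fzd2, at 52.1 and 32.6 CPM per kb the most abundant receptors in WT, had log2 fold changes of -0.49 ± 0.18 and 0.45 ± 0.23 (edgeR adjusted p = 0.0966 and 0.215, 0.0278 and 0.0135 with the replicate block, and 0.0939 and 0.118 with the block on summed replicates 1 and 2). Fzd7, next at 24.5 CPM per kb, had a value of 0.06 ± 0.17. Fzd3, Fzd4 and Fzd9 had log2 fold changes of 0.41, -0.10 and -0.43.

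The frizzled transcripts summed to 149 to 169 CPM per kb in WT and 122 to 149 CPM per kb in TCKO. Within the sum, Fzd5 went from 14.0% ± 2.67 to 5.06% ± 0.808 and Fzd8 from 9.43% ± 1.52 to 5.34% ± 0.273 (SD, n = 3). The share of Fzd2 was 20.3% ± 2.90 in WT and 31.7% ± 6.08 in TCKO, and that of Fzd6 was 5.05% ± 1.45 and 9.29% ± 2.11.

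Fzd5 and Fzd8 remained below 0.05 in every fit with 1 library left out (adjusted p up to 0.00163 and 0.0285), and Fzd10 did not without WT replicate 1 (0.0542) or TCKO replicate 2 (0.0546). Leaving out WT replicate 1, WT replicate 2, TCKO replicate 1 or TCKO replicate 2 gave edgeR adjusted p-values of 0.0675, 0.0811, 0.0786 and 0.0798 for Ror2, of 0.0929, 0.104, 0.0641 and 0.0553 for Fzd6 and of 0.159, 0.159, 0.0821 and 0.123 for Lrp6, which also had 0.0757 without TCKO replicate 3.

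R-spondins are secreted proteins that, through the LGR receptors, protect frizzleds and Lrp6 from removal at the cell surface. Of their 7 genes 5 were tested, and 2 were lower and 0 higher (3 lower and 0 higher at an unadjusted p under 0.05 in edgeR, and 2 lower and 0 higher in DESeq2 at an adjusted p). That is 40% of those tested, against 17.7% of all tested genes. With replicates 1 and 2 summed, edgeR called 0 in either direction (2 lower and 0 higher unadjusted). Rspo2 (ENSMUSG00000051920, chromosome 15, 43020794 to 43170826), which is needed for limb and craniofacial development, had 103, 135 and 63 counts over the WT libraries against 22, 21 and 48 over the TCKO ones. The difference was wide in replicates 1 and 2 and narrow in replicate 3, where the groups came close without overlapping. Its level fell from 11.2 ± 3.12 to 3.50 ± 1.63 CPM (log2 fold change -1.67 ± 0.34, edgeR adjusted p = 0.0146).

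Lgr4 (ENSMUSG00000050199, chromosome 2, 109917647 to 110014257), the broadly expressed R-spondin receptor, had 600, 847 and 795 counts over the WT libraries against 511, 414 and 566 over the TCKO ones. It fell from 84.5 ± 11.9 to 57.8 ± 6.03 CPM (log2 fold change -0.55 ± 0.12, edgeR adjusted p = 0.0207), and it was the most abundant gene of this group in both genotypes, at 14.4 and 9.82 CPM per kb. Rspo3, second in WT at 9.52 CPM per kb, had 286, 370 and 138 counts over the WT libraries against 154, 144 and 176 over the TCKO ones, so that WT replicate 3 lay below the TCKO libraries (log2 fold change -0.68 ± 0.27, edgeR adjusted p = 0.123, and 0.00126 without WT replicate 3).

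Lgr6, next at 3.10 CPM per kb, was dominated by replicate 3, with 23, 35 and 473 counts over the WT libraries against 39, 31 and 141 over the TCKO ones. Its log2 fold change of -1.37 ± 1.11 (by edgeR, adjusted p = 0.443) turned to 1.36 without WT replicate 3. Lgr5, the stem cell marker of intestine and hair, had the reverse layout, with 56, 63 and 6 counts over the WT libraries against 24, 32 and 9 over the TCKO ones (log2 fold change -0.86, edgeR adjusted p = 0.455).

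The R-spondin transcripts, summed per kb, were mostly Rspo3 (77.6% ± 3.47 in WT and 84.9% ± 3.45 in TCKO), and the share of Rspo2 was 18.4% ± 1.67 against 9.51% ± 3.39 (SD, n = 3). Rspo1 had 4 to 10 counts per library, and Rspo4 and its antisense transcript Rspo4os at most 1. The edgeR adjusted p of Rspo2 was 0.0594, 0.0670, 0.0602 and 0.0603 without WT replicate 1, WT replicate 2, TCKO replicate 1 and TCKO replicate 2, and that of Lgr4 was 0.0755, 0.0710 and 0.0791 without WT replicate 2, TCKO replicate 1 and TCKO replicate 2.

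Secreted antagonists bind Wnt proteins (the Sfrp family, Frzb and Wif1), bind Lrp5 and Lrp6 (Dkk1, Dkk2, Dkk4 and Sost) or strip the lipid from Wnt (Notum). Dkk3 is counted with them by family only. Of the 12 genes in this role 7 were tested, and 3 were lower and 0 higher (also 3 and 0 at an unadjusted p under 0.05 in edgeR, and 3 and 0 in DESeq2 at an adjusted p). That is 42.9% of those tested, against 17.7% of all tested genes. With replicates 1 and 2 summed, edgeR called 0 in either direction (3 lower and 0 higher unadjusted). Without replicate 3, or keeping every gene with at least 1 count, 4 were lower and 1 higher. Sfrp2 (ENSMUSG00000027996, chromosome 3, 83766321 to 83774316) had 787, 906 and 214 counts over the WT libraries against 132, 135 and 86 over the TCKO ones. WT replicate 3 was well below the other WT libraries but still above every TCKO library. Its level fell 5.12-fold, from 70.6 ± 38.7 to 13.8 ± 3.72 CPM (log2 fold change -2.36 ± 0.47, edgeR adjusted p = 0.0131, and 0.000822 with the replicate block).

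Dkk2 (ENSMUSG00000028031, chromosome 3, 132085292 to 132180304), a Lrp5 and Lrp6 binding protein expressed in osteoblasts, had 549, 684 and 267 counts over the WT libraries against 173, 166 and 126 over the TCKO ones, the same layout as Sfrp2. It fell from 55.7 ± 20.2 to 18.2 ± 3.53 CPM (log2 fold change -1.62 ± 0.29, edgeR adjusted p = 0.00819). Wif1 (ENSMUSG00000020218, chromosome 10, 121033960 to 121100650), a Wnt-binding protein of cartilage and bone, was scarce, with 12, 12 and 24 counts over the WT libraries against 5, 3 and 3 over the TCKO ones. Its log2 fold change of -2.06 ± 0.50 (1.85 ± 0.923 against 0.427 ± 0.126 CPM, edgeR adjusted p = 0.0272) rests on TCKO libraries at or just above the floor of 3 counts. Since Wif1 passed the filter through its WT libraries alone, this test is not given as support.

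Dkk3, a divergent Dkk family member, was the most abundant gene counted in this role, at 160 CPM per kb in WT and 98.1 in TCKO. It had 4995, 6327 and 3130 counts over the WT libraries against 3569, 3332 and 1490 over the TCKO ones, and replicate 3 was the lowest of its genotype in both, so that the groups overlapped. Its log2 fold change was -0.71 ± 0.34, with an edgeR adjusted p of 0.196 without and 0.00658 with the replicate block, and 0.0445 with the block on summed replicates 1 and 2. Sfrp1, Frzb and Sfrp4 had log2 fold changes of 0.18, 0.36 and -0.58, none past the threshold. Sost, the osteocyte inhibitor, and Dkk4 had no count, Sfrp5 at most 1, Dkk1 0, 1 and 0 in WT against 2, 4 and 9 in TCKO, and Notum 1 to 14.

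Summed per kb, antagonist transcripts came to 141 to 256 CPM per kb in WT and 65.5 to 144 CPM per kb in TCKO, with Dkk3 at 75.3% ± 4.19 and 82.3% ± 5.51 of the sum and Sfrp2 at 14.2% ± 4.98 and 5.73% ± 0.993 (SD, n = 3). Sfrp2 had edgeR adjusted p-values of 0.0544 without WT replicate 2 and 0.0518 without TCKO replicate 1. Wif1 had 0.0584, 0.0668, 0.0936 and 0.0600 without WT replicate 1 and TCKO replicates 1, 2 and 3, and Dkk2 reached at most 0.0381.

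Of the 4 intracellular genes, Nkd1 was lower, Axin2 was higher in a call that was lost with any 1 library left out and in DESeq2, and Axin1 and Nkd2 were not called. Nkd1 (ENSMUSG00000031661, chromosome 8, 88521354 to 88594884), a feedback inhibitor that binds Dishevelled, had 75, 126 and 93 counts over the WT libraries against 29, 25 and 29 over the TCKO ones. The TCKO libraries were nearly equal and all under the lowest WT library. Its level fell 3.40-fold, from 10.98 ± 1.77 to 3.22 ± 0.105 CPM (log2 fold change -1.77 ± 0.19, edgeR adjusted p = 0.000952, at most 0.00771 with any 1 library left out).

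Axin2 (ENSMUSG00000000142, chromosome 11, 108920349 to 108950783), the inducible scaffold of the beta-catenin destruction complex and a standard readout of canonical signalling, had 80, 117 and 85 counts over the WT libraries against 129, 113 and 147 over the TCKO ones. Scaled to library size, every TCKO library was above every WT library, at 15.1 ± 1.26 against 10.6 ± 1.02 CPM. The log2 fold change of 0.51 ± 0.14 had an adjusted p of 0.0368 in edgeR and 0.0598 in DESeq2. It lost the threshold with any library left out, at 0.139, 0.0698 and 0.0585 without WT replicates 1, 2 and 3 and 0.0953, 0.0776 and 0.0633 without TCKO replicates 1, 2 and 3.

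Axin1, the constitutive scaffold and the most abundant gene of the group at 18.2 CPM per kb in WT, had a log2 fold change of 0.04 ± 0.08 (by edgeR, adjusted p = 0.765). Nkd2, at 6.91 CPM per kb, had 0.13 ± 0.10 (edgeR adjusted p = 0.429). Of the 2 transcription factors, Tcf7 had 36, 68 and 57 counts over the WT libraries against 71, 69 and 80 over the TCKO ones (log2 fold change 0.50 ± 0.21, edgeR adjusted p = 0.135), and Lef1, with 3 to 20 counts per library, was too low to be tested.

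**Figure D3:**
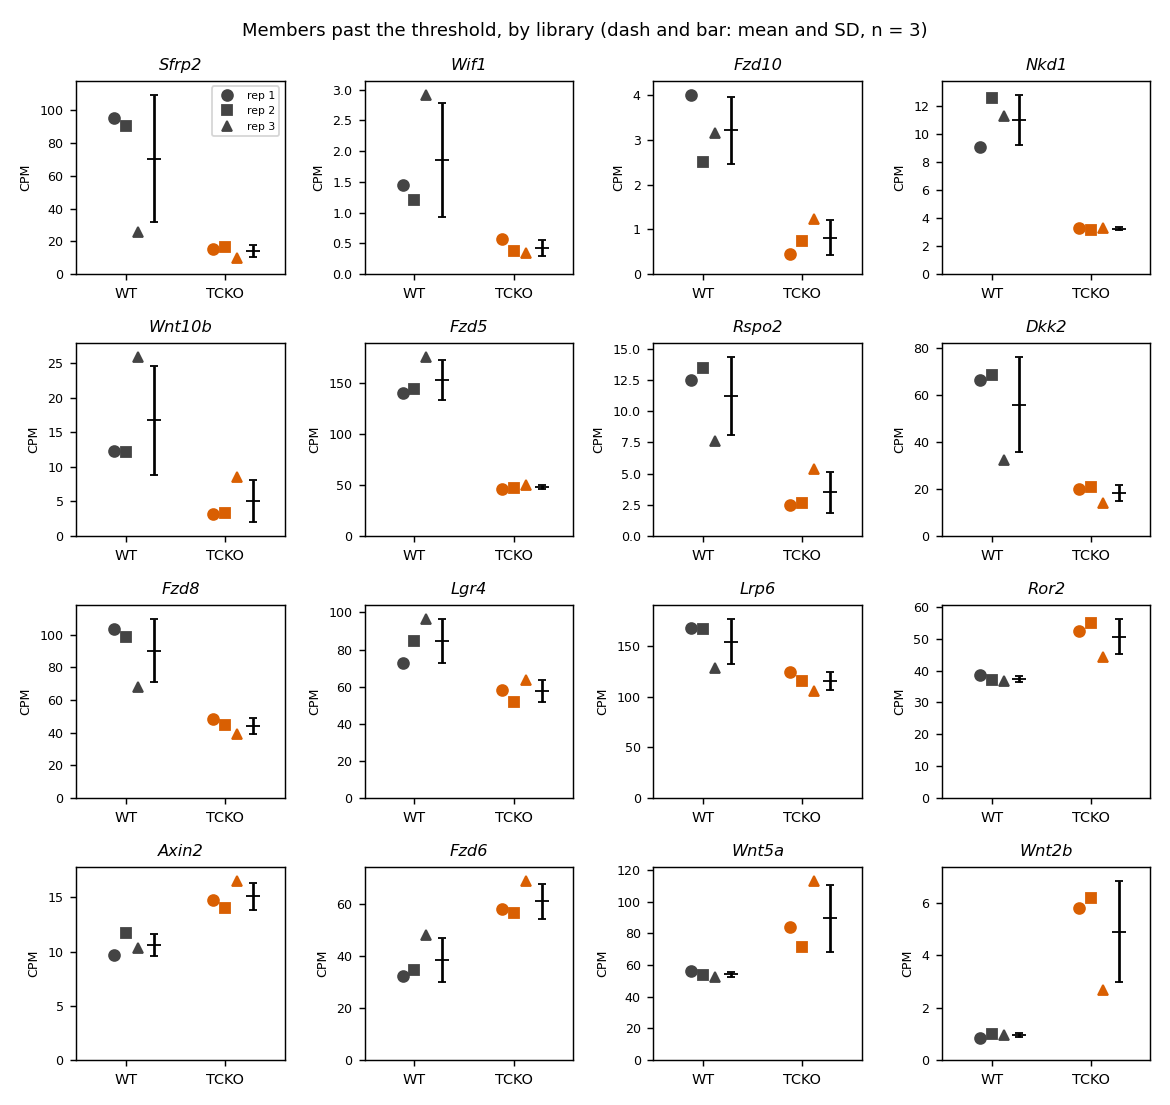
CPM of the 16 called members in each library, 1 panel per gene ordered by fold change, with circles, squares and triangles for replicates 1, 2 and 3 and a dash with a bar for the mean and SD (n = 3). In all 16 panels the WT and TCKO points do not overlap, and in the Sfrp2 and Dkk2 panels WT replicate 3 lies well below the other WT points.

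Because TET enzymes act on methylated cytosine, which in mammals sits mainly in CG dinucleotides, the promoter sequences of the members were described by their CG content. Promoters from RefSeq (GRCm38.p6) were matched for 39 of the 59 members, 46 promoters in all, and the 250 bases before each start were read. The 3 printed here belong to the called genes Sfrp2, Fzd5 and Axin2, an antagonist, a receptor and a feedback gene. CG dinucleotides are in capitals, and each is written 5′ to 3′ on the strand of its gene: Sfrp2 from chr3:83766071-83766320 (plus strand), Fzd5 from chr1:64737751-64738000 (minus strand) and Axin2 from chr11:108920099-108920348 (plus strand).
Sfrp2: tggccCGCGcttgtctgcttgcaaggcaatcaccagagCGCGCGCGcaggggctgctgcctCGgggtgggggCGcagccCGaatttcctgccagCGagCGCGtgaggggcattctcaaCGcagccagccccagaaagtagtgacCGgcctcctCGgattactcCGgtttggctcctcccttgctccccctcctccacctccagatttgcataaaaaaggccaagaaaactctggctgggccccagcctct
Fzd5: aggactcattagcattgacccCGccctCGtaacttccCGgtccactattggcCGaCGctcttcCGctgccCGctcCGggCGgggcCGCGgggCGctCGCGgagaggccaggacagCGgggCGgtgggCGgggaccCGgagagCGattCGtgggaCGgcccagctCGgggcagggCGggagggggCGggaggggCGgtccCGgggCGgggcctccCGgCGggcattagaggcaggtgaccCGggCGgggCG
Axin2: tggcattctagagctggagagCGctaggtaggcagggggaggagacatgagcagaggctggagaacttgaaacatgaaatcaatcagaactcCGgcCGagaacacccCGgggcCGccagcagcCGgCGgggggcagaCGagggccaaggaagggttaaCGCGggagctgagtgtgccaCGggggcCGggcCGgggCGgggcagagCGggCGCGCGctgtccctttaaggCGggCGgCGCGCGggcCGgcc
These windows held 16, 32 and 24 CG dinucleotides. The median was 16.5 over the member promoters, 15 for the 8 members called lower with a promoter, 24 for the 3 called higher, 16 for the 19 promoters of tested members that were not called, and 6 over all 32851 promoters. DNA methylation was not analysed here.

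TCF and LEF factors bind a core whose letters were searched as CTTTG followed by AA, AT, TA or TT, on both strands of the same windows. The letters occurred in 5 of the 46 member promoters (10.9%) and in 4874 of all 32851 (14.8%). None of the 8 promoters of members called lower and none of the 3 of members called higher held them, against 3 of 19 for tested members that were not called. Sets of 8 and 3 promoters are too small to be set apart from the share of all promoters. Among the 8, the window of Nkd1 lies before a start 6279 bases inside the deposited gene, which holds for its CG count as well. Of the 5 windows with the letters, those of Wnt5b and Lef1 lie before starts 94961 and 45823 bases inside the gene. The Wnt5b window is among the 3 of tested members that were not called. An absence says only that the letters were not in these windows.

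Since replicates 1 and 2 were nearly alike and replicate 3 stood apart, the difference between genotypes was also taken within each. The 16 called members did not overlap between the genotypes, which fixes their sign to be the same in replicates 1 and 2 and in replicate 3. Of the 24 tested members that were not called, 14 (58.3%) had the same sign in both, against 62.5% of all tested genes that were not called. For 10 of the 16 the difference was smaller in replicate 3. That of Rspo2 was -2.24 on the log2 CPM scale in replicates 1 and 2 and -0.49 in replicate 3, and that of Sfrp2 was -2.53 and -1.41. Fzd5 (-1.60 and -1.80), Nkd1 (-1.67 and -1.72) and Wnt10b (-1.83 and -1.57) were nearly the same in both, and Wnt5a (0.50 and 1.10) and Wif1 (-1.16 and -2.47) differed more in replicate 3. The 10 members of opposite sign were Lgr5, Lgr6, Rspo3, Axin1, Wnt9a, Fzd7, Lrp5, Frzb, Sfrp1 and Sfrp4, none of them called.

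**Figure D4:**
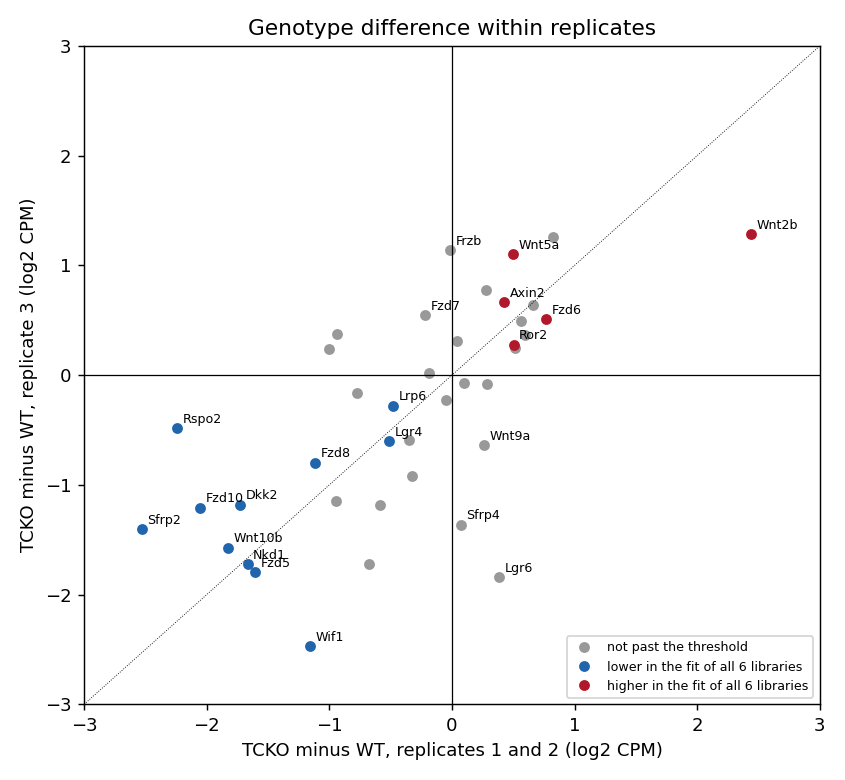
TCKO minus WT in log2 CPM within replicates 1 and 2 (horizontal axis) and within replicate 3 (vertical axis) for the 40 tested members, with colour for the call in the fit of all 6 libraries and a dotted line where both are equal. The 16 called members lie in the lower left and upper right quadrants, where their lack of overlap places them, and Lgr6 and Rspo3 are among the 10 members outside them.

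The calls differed in how firmly they held. Fzd5 and Nkd1 were called under all of the 17 alternative settings that gave a value for them. Fzd8 and Dkk2 were, in addition, called with any 1 library left out. Leaving out replicate 1 or 2 keeps a library nearly like it, and with both summed Fzd8 and Dkk2 had edgeR adjusted p-values of 0.0884 and 0.112. Wnt2b was also called with any 1 library left out. It was tested only through its TCKO libraries, so its calls say nothing of firmness. Axin2, Lrp6 and Wnt10b lost the threshold in 6, 5 and 5 of the 6 fits with a library left out. Normalization by RLE or upper-quartile factors and the restriction to autosomal genes each called all 16.

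**Figure D5:**
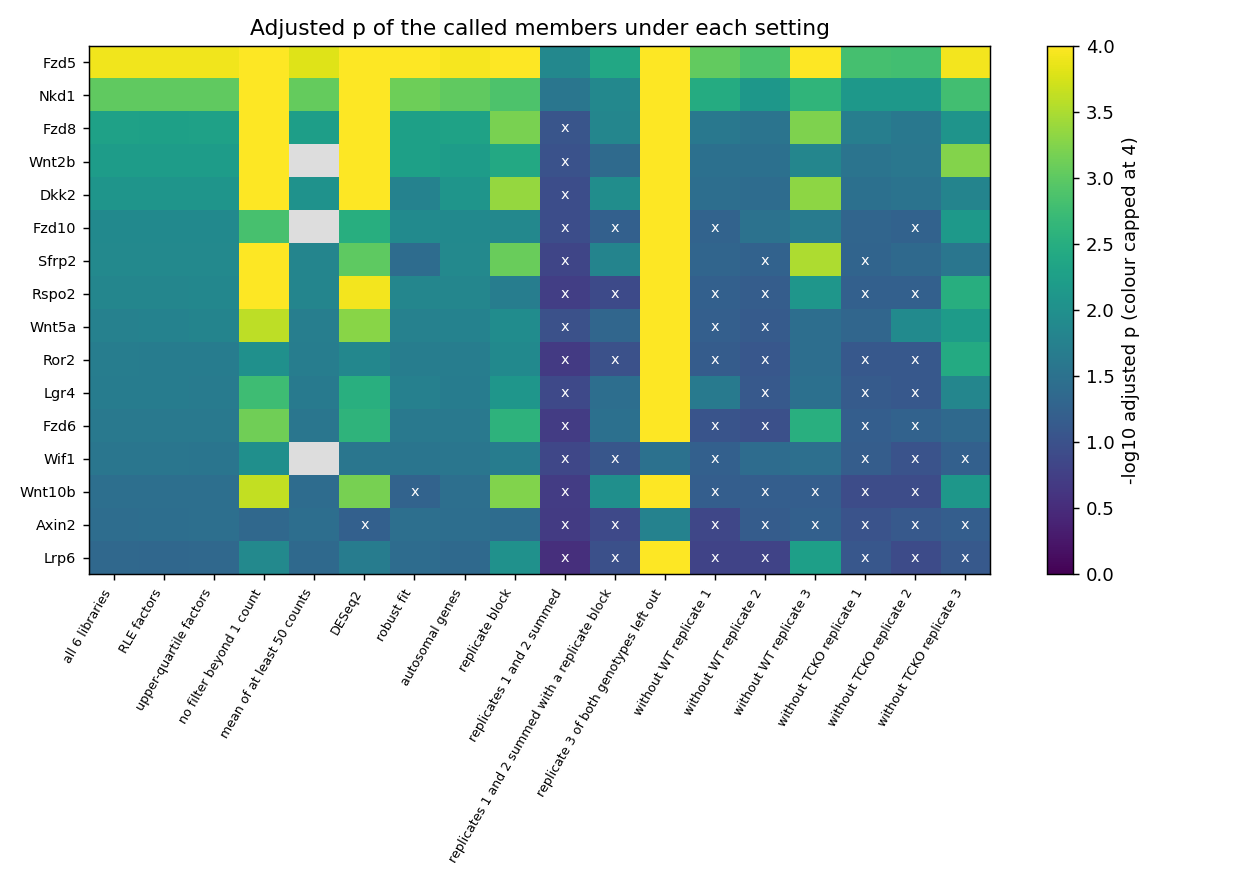
Adjusted p of the 16 called members (rows, ordered by adjusted p) under the fit of all 6 libraries and each alternative (columns), as -log10 with the colour capped at 4, white crosses where it was at or above 0.05 and grey where a gene was not tested. Fzd5 and Nkd1 have no cross in any column, and Axin2 has one in each of the 6 columns with a library left out.

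Other genes of the pathway were examined from a list of 81 that act in Wnt secretion, reception, transduction and response. Of these 69 were tested and 19 called (27.5%, against 17.7% of all tested genes), with 10 lower and 9 higher and a median log2 fold change of -0.04. In the mixed group of co-receptors and receptor control, 4 of 7 tested genes were lower (Trabd2b, Kremen1, Sostdc1 and Ptk7) and 0 higher. The counts were also 4 and 0 at an unadjusted p under 0.05 in edgeR and 4 and 0 in DESeq2. Once replicates 1 and 2 were summed, 2 were lower and 0 higher. Sostdc1 is counted here and among the 19 called, but it passed the filter through its WT libraries alone. Transduction genes were higher in 4 of 23 (Amer2, Tnks2, Csnk1e and Tnks; 17.4%, near the share of all genes) and lower in 0 (5 and 1 at an unadjusted p, and 4 and 0 in DESeq2). Without replicate 3 they were higher in 6 and lower in 5, and with the summed replicates edgeR called 0 in either direction (3 higher and 0 lower at an unadjusted p). Commonly used target genes were lower in 4 of 15 tested cases (Snai2, Ccnd1, Tnfrsf19 and Ccn5) and higher in 1 (Bambi). Nuclear genes had 1 lower and 2 higher of 10, polarity genes 1 and 1 of 8, and secretion genes 0 and 1 of 6 (1 and 2 at an unadjusted p in edgeR, and 0 and 1 in DESeq2).

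Changes beyond 2-fold in this list concerned 7 genes. Trabd2b, a membrane protease that inactivates Wnt proteins, had 633, 735 and 830 counts over the WT libraries against 201, 140 and 141 over the TCKO ones (log2 fold change -2.16 ± 0.17, edgeR adjusted p = 0.000301). Sostdc1, an antagonist of Wnt and BMP signals, had 29, 37 and 10 counts over the WT libraries against 1, 0 and 0 over the TCKO ones, at least 8.001-fold lower against a floor of 3 counts per library. It passed the filter through its WT libraries alone, so its test is not given as support.

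Ccnd1, the cell-cycle gene cyclin D1, had 6564, 7702 and 3617 counts over the WT libraries against 1395, 1218 and 1803 over the TCKO ones (log2 fold change -1.96 ± 0.23, edgeR adjusted p = 0.00151). Tnfrsf19, a receptor of the TNF family, had 422, 552 and 682 in WT and 170, 193 and 194 in TCKO (-1.54 ± 0.19, edgeR adjusted p = 0.00188). Ccn5, a secreted matricellular protein, had 3100, 4005 and 2653 in WT and 1243, 1177 and 441 in TCKO (-1.70 ± 0.36, edgeR adjusted p = 0.0155). These target genes lay in the direction opposite to Axin2, and Ccn5 lost the threshold without WT replicate 1 (0.0549) or WT replicate 2 (0.0626).

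Amer2, a relative of the Apc-binding protein Amer1, had 14, 12 and 27 counts over the WT libraries against 101, 115 and 66 over the TCKO ones, higher in every TCKO library (log2 fold change 2.44 ± 0.39, edgeR adjusted p = 0.00511). Celsr2, a cadherin of the polarity branch, had 16, 19 and 11 in WT and 39, 27 and 26 in TCKO (1.04 ± 0.28, adjusted p = 0.0400 in edgeR and 0.0720 in DESeq2). The edgeR adjusted p of Celsr2 rose to 0.100, 0.107 and 0.0723 without WT replicates 1, 2 and 3 and to 0.140 and 0.0966 without TCKO replicates 1 and 2.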

How the data were processed

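The authors aligned RNA-seq reads of a directional library kit to GRCm38 (Ensembl release 99) with STAR 2.7.0e and counted them per gene with featureCounts 2.0.0. The deposited values are raw counts for 55471 genes in 6 libraries, with summed exon lengths and without normalization. Whether counting used the strand is not stated, so overlapping and antisense genes are less certain. The opposite-strand genes that overlap members had few counts, with Gm2670 beside Wnt5a the highest at 38 in all libraries together. Groups came from the sample titles, and 0 columns lacked a sample. Symbols were matched by gene identifier for 55144 genes, and coordinates are those of the deposited table.

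Counts were tested with edgeR 4.0.16 in R 4.3.3 (filterByExpr, TMM, glmQLFit and glmQLFTest without covariates) over 13826 genes, which held 99.7% to 99.8% of the counts, with Benjamini-Hochberg adjustment over all of them. A member was called at an adjusted p under 0.05. CPM uses TMM-scaled library sizes, and CPM per kb divides by exon length. SE values derive from the quasi-likelihood F statistic. A count of 0 can hide 3 counts, or 0.299 to 0.373 CPM, which covers counting error only. Differences within replicates are of log2 CPM with a prior count of 2, the mean of replicates 1 and 2 standing for both. The script was tested on simulated data.

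The members, role groups and gene lists were chosen with earlier results of these data known. Values per library are given for each called member, the 3 most abundant of each larger role in WT are named, and of the other pathway genes those called beyond 2-fold. Deviations of same-numbered WT and TCKO libraries from their group means correlated across 13826 genes at 0.20, 0.21 and 0.35, each over 0.1, so the block was run as a pairing. WT replicate 2 with TCKO replicate 1 (0.22) and WT replicate 1 with TCKO replicate 2 (0.19) correlated as much, and pairs of replicate 3 with another number at -0.28 to -0.25, so the check sets replicate 3 apart and does not tell replicates 1 and 2 from each other, and the blocked value is given where it changes a call. Alternatives were RLE and upper-quartile factors, keeping every gene with at least 1 count, keeping genes averaging 50 counts or more, DESeq2 1.42.0, a robust fit, autosomal genes, the replicate block, replicates 1 and 2 summed with and without the block, replicate 3 left out, and each library left out in turn.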

Additional observations from a re-analysis of the deposited data

How the results depend on the processing

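The 16 calls are limited by the closeness of replicates 1 and 2, by 1 library that differed in sex-linked transcripts and by a depth at which 19 members were untested. RLE factors, upper-quartile factors and autosomal genes each kept all 16 calls, as did the replicate block, under which 2 members were higher beyond 2-fold (Wnt2b and Wnt2). Keeping every gene with at least 1 count gave 3 such members, and a mean of at least 50 counts gave 0 (Wnt2b was then not tested). DESeq2 shared 15 calls, losing Axin2 and gaining Ror1, and the robust fit shared 15, losing Wnt10b.

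With replicates 1 and 2 summed, edgeR called 2 members lower and 0 higher (12 and 5 at an unadjusted p under 0.05), 2 and 0 of them beyond 2-fold, and 4 other pathway genes lower and 0 higher (11 and 9 unadjusted), 3 and 0 beyond 2-fold, against 169 lower and 217 higher of all genes, 146 and 178 beyond 2-fold. With the block added, 5 members were lower and 2 higher beyond 2-fold, 5 other pathway genes were higher with 0 beyond 2-fold (14 higher unadjusted), and 566 of all genes were lower and 584 higher. Without replicate 3, 19 members were lower and 11 higher, 25 other pathway genes were lower and 17 higher with 4 beyond 2-fold, and 3116 of all genes were lower and 3121 higher, 663 of the latter beyond 2-fold. A mean of at least 50 counts left 288 genes lower and 255 higher beyond 2-fold and 1 such higher pathway gene, as did DESeq2.

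With 1 library left out, 5 to 12 members were lower and 1 to 6 higher (4 to 9 and 1 to 1 beyond 2-fold). Other pathway genes gave 8 to 13 lower and 5 to 11 higher (5 to 6 and 1 to 3 beyond 2-fold), and all genes 550 to 1509 lower and 603 to 1613 higher (300 to 511 and 295 to 538 beyond 2-fold).

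No called member changed sign, which their lack of overlap between the genotypes all but fixes, so this says little of firmness. Among the others, on the log2 scale, Lgr6 turned to 0.39, Fzd7 to -0.22 (edgeR adjusted p = 0.00154), Frzb to -0.0197 and Sfrp4 to 0.0523 without replicate 3, and Wnt9a to -0.0176 with the replicate block, -0.10 with the sums and -0.15 with both. With 1 library left out, the log2 fold changes ranged from -2.32 to 1.36 for Lgr6 (positive without WT replicate 3), from -1.64 to 0.42 for Wnt4 (positive without WT replicate 3 or TCKO replicate 1), from -0.0133 to 0.0836 for Axin1 (negative without WT replicate 1 or TCKO replicate 2), from -0.16 to 0.29 for Wnt9a (negative without TCKO replicate 1 or 2), from -0.28 to 0.0361 for Fzd4 and from -0.16 to 0.17 for Fzd7 (both turned without TCKO replicate 3). The cause was not tested.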

Other observations

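Several Wnt genes lie side by side in the genome, and in 2 of 4 such pairs the neighbours differed widely in level (GRCm38). On chromosome 15, Wnt10b had 27 to 213 counts per library, while Wnt1, 11.7 kb away, had 0 in all 6. On chromosome 11, Wnt9a had 255 to 477 counts and Wnt3a, 16.2 kb away, at most 1. In the other pairs both genes were low or absent. Wnt6 and Wnt10a on chromosome 1 lie 6.19 kb apart and had 0 to 4 and 1 to 13 counts, and Wnt9b and Wnt3 on chromosome 11 lie 24.3 kb apart and had 0 and at most 1.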
